A study of Mus musculus with 2 samples.

Results

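The H3K27ac landscape of 10 lymphoid priming genes was examined in ChIP-seq peak lists of mouse MA9 leukaemia cells: Rag1, Rag2, Dntt, Ebf1, Pax5, Il7r, Notch1, Tcf7, Satb1 and Cd79a. They are 10 of 21887 protein-coding genes, chosen by symbol, with Rag1 and Rag2 taken as 1 locus because they are neighbours. For each of the 9 loci, every peak over the gene span and 100 kb on both sides was counted (mm10 coordinates throughout). H3K27ac, acetylation of histone H3 at lysine 27, marks active promoters and enhancers. The Gata2 KO library (Gata2 -/-) and the Gata2 f/f library (floxed, intact Gata2) each stand for 1 genotype. MA9 leukaemia carries the MLL-AF9 fusion gene. Per the labels the cells were taken from the marrow of primary animals, transduced with Cre or with the control MIT, and sorted for GFP and tdTomato. Culture then lasted 7 to 9 days, with SCF (20 ng/mL), IL-6 (10 ng/mL) and IL-3, which are myeloid and stem cell cytokines. Animal age, sex and strain, and the number of animals behind a library, are not stated in the labels. The study's title concerns drug resistance in AML. Since each genotype has a single library, no difference below has a replicate check, and no test was made.

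Lymphoid priming is the low activity of lymphocyte genes in multipotent progenitors before they commit to a lineage. RAG1 and RAG2 cut DNA for V(D)J recombination of antigen receptor genes, and TdT, the product of Dntt, adds bases at the joins. EBF1 and PAX5 specify and fix the B cell fate, in which CD79A carries the signal of the B cell receptor. NOTCH1 and its target TCF-1 (from Tcf7) drive the T cell fate, IL-7 receptor signals sustain lymphoid progenitors, and SATB1 is a chromatin organiser of lymphoid progenitors and thymocytes. GATA2, a transcription factor of stem and progenitor cells, is the gene removed here; a peak list does not show whether its exons were excised.

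The KO list held 37234 peaks on chromosomes 1 to 19, X and Y, and the f/f list 34272, with median widths of 1166 and 1207 bp. The number of reads behind them is unknown. Each peak carries the authors' own -log10 p and fold over background, used here to place a peak within its own list, and as cutoffs in the alternative peak choices (the KO median -log10 p was 9.41 and the f/f median 12.2). The lists differ beyond genotype labels: Uty, Kdm5d and Eif2s3y had peaks at a gene end in KO and not in f/f, Xist in f/f and not in KO, and 6 chromosome starts were blank in 1 list. None of the 9 loci lies in such a start. Of 10 myeloid leukaemia markers, 6 had a peak within 1 kb of a gene end in KO and 9 in f/f. Of 8 T cell markers, Cd3d and Cd4 had one in both lists, and Cd3e, Cd3g, Cd8a, Lck, Zap70 and Bcl11b in neither. Of 8 B cell markers, Cd79a and Igll1 had one in both lists, Cd79b and Vpreb1 in f/f, and Ms4a1, Pax5 and Ebf1 were among those with one in neither. At Hoxa9, Meis1 and Mpo the KO list had a peak within 5 kb but none within 1 kb, and the f/f list one within 1 kb; the part of these differences in the results below was not tested.

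Of the lymphoid genes, 3 carried H3K27ac at a gene start in both libraries, 1 in f/f only, and 6 in neither. A start was taken as marked with a peak 1 kb or less from a transcription start in the RefSeq promoter table, which lists 16 starts for these genes. Notch1, Tcf7 and Satb1 were marked in both lists, as were 49.2% of 17492 protein-coding genes with an entry. Rag2 was marked in f/f and not in KO, a state shared by 2.41% of genes. No lymphoid gene was marked in KO and not in f/f (1.86% of genes). Rag1, Dntt, Ebf1, Pax5, Il7r and Cd79a had no start peak in either library. Counted at either gene end instead of the start, 4 of 10 genes had a peak in both lists, against 47.6% of 21887 genes, Cd79a being added by a neighbour's promoter at its 3' end. At gene ends 0 of 10 genes were marked in KO alone, and 0 of 10 in f/f alone, meaning that the other list had no peak within 5 kb of the ends. The corresponding shares of all genes were 1.6% and 1.83%.

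Over the 9 loci, 68 KO peaks covered 92.3 kb and 65 f/f peaks covered 92.4 kb. Overlapping peaks of both lists joined into 76 regions, of which 57 (75.0%) held peaks of both, 11 (14.5%) KO peaks only and 8 (10.5%) f/f peaks only. Over the whole genome the shares were 67.2%, 19.7% and 13.1% of 42587 regions. The median difference in locus coverage, KO minus f/f, was 0.0005 percentage points, against 0.0 over all genes. By coverage, 5 loci were higher in KO and 4 lower. The total hid a difference in where the bases lay: inside the 9 gene spans lay 14.3 kb under KO peaks and 20.1 kb under f/f peaks. Satb1 (910 bp in KO, 5192 bp in f/f) and Ebf1 (0 and 2786 bp), described below, made up more than that whole difference. Of the other spans, Notch1 (6885 and 5592 bp), Tcf7 (3716 and 3416 bp) and Il7r (1496 and 1411 bp) had more KO bases. The Rag1/Rag2 span (721 and 1149 bp) and Pax5 (553 and 577 bp) had more f/f bases, and Dntt and Cd79a had none. Without Satb1 and Ebf1, the spans held more KO than f/f bases. Bases inside gene spans were not computed over all genes.

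**Figure D1:**
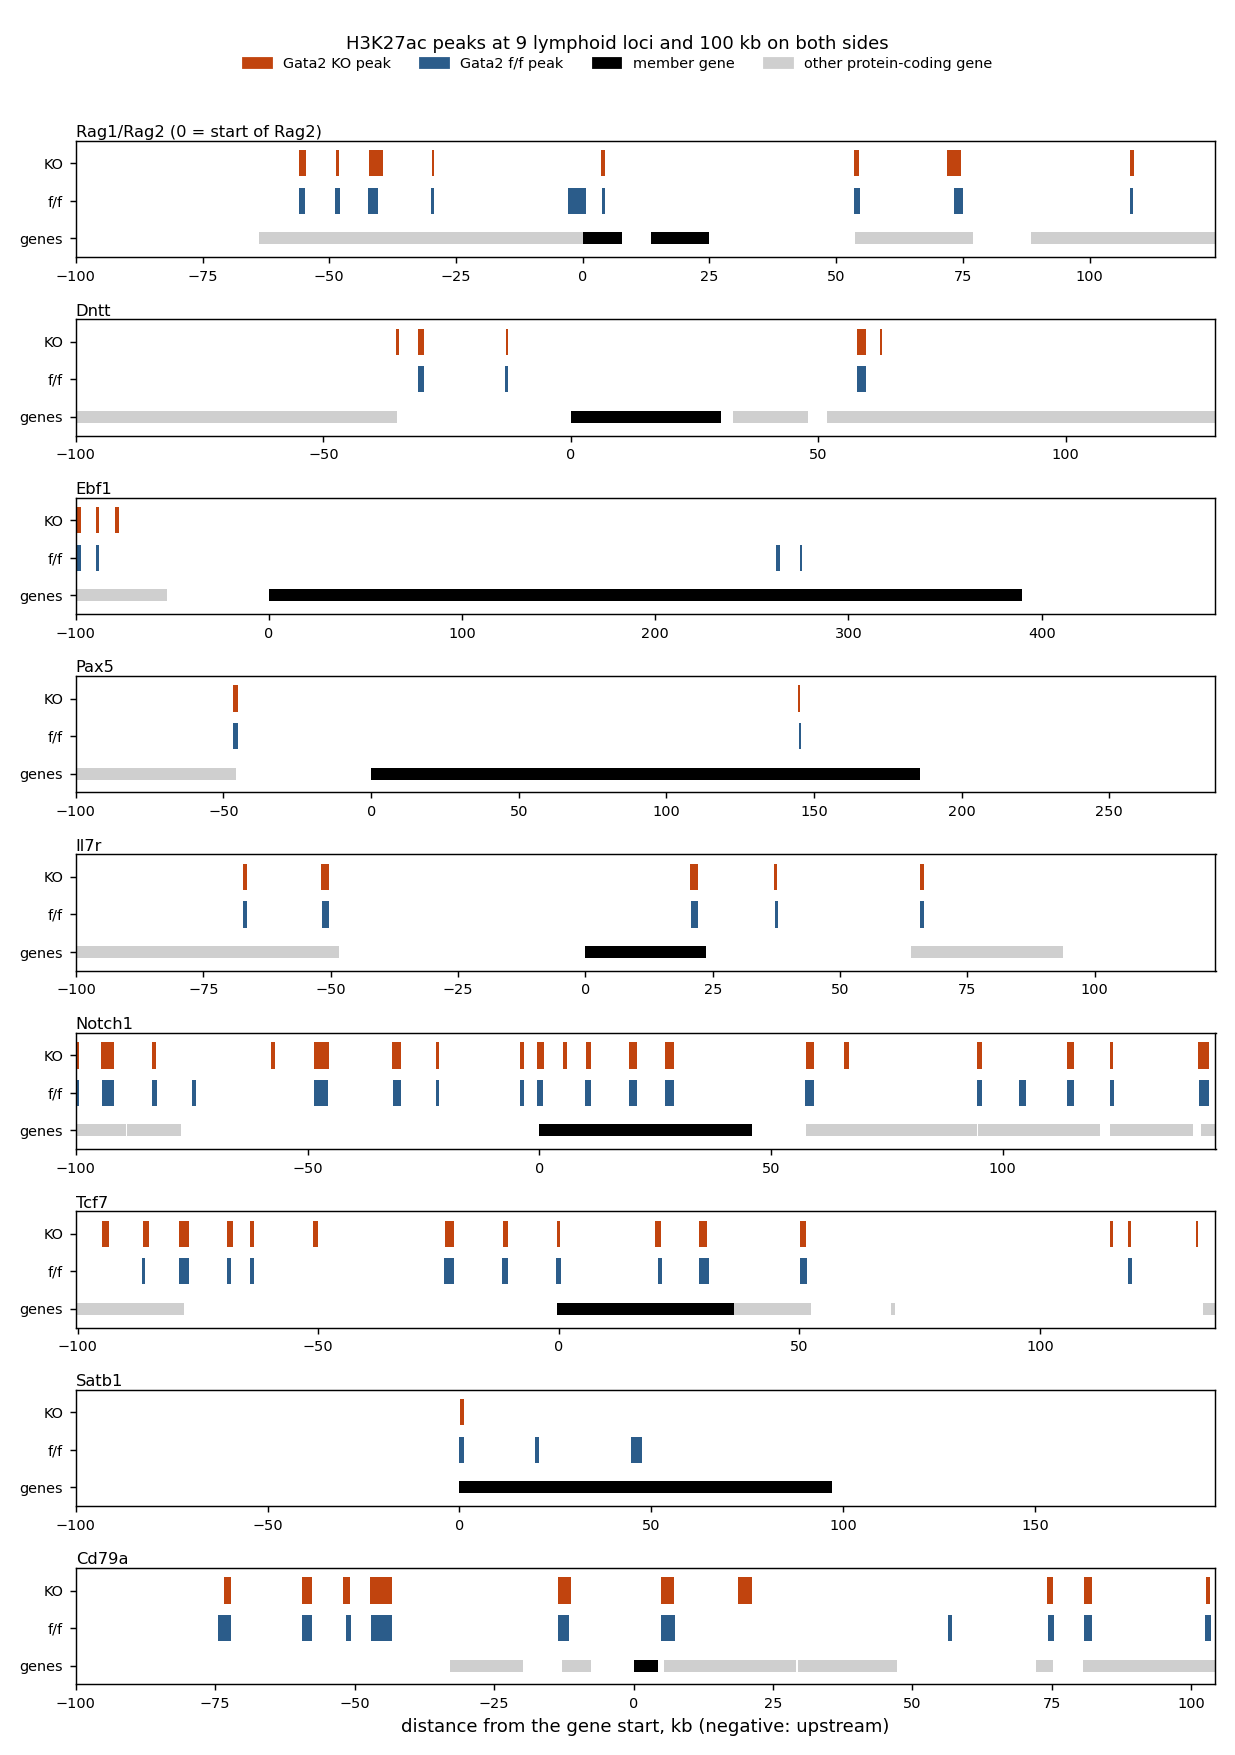
Maps of the 9 loci, with KO peaks in the upper row, f/f peaks in the middle row and protein-coding genes in the lower row of each panel (members in black, neighbours in grey). The x axis is the distance from the gene start in kb, with the gene running to the right; the narrowest peaks are drawn slightly wider than they are. Satb1 has 1 KO and 3 f/f peaks, Ebf1 has f/f peaks inside the gene and no KO peak there, and the Notch1 and Tcf7 loci are dense in both lists.

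The bases covered were set against a 1.5-fold rule on (KO bases + 1000) over (f/f bases + 1000). Past that rule lay 0 loci toward KO and 1, Satb1, toward f/f. Of all protein-coding genes treated alike, 6.35% lay past it toward KO and 4.61% toward f/f. Leaving out genes whose flanks reach a blank chromosome start, 1237 of 21612 lay past it toward KO and 980 toward f/f, against 1390 and 1008 of 21887. A single locus of 9 gives no result about the set. Notch1 had the most covered bases, with 27823 bp in KO and 26793 bp in f/f, and Cd79a followed with 18711 and 17537 bp. Tcf7 had 17139 bp in KO and 13368 bp in f/f. The Rag1/Rag2 locus had 10251 bp in KO and 12280 bp in f/f. Ebf1 had 5415 and 6225 bp, Il7r 5146 and 5255 bp, and Dntt 4656 and 3450 bp in KO and f/f. Pax5 was almost equal, at 2245 bp in KO and 2243 bp in f/f. Satb1 had 910 bp in KO and 5251 bp in f/f, a ratio of 0.31 under the rule.

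**Figure D2:**
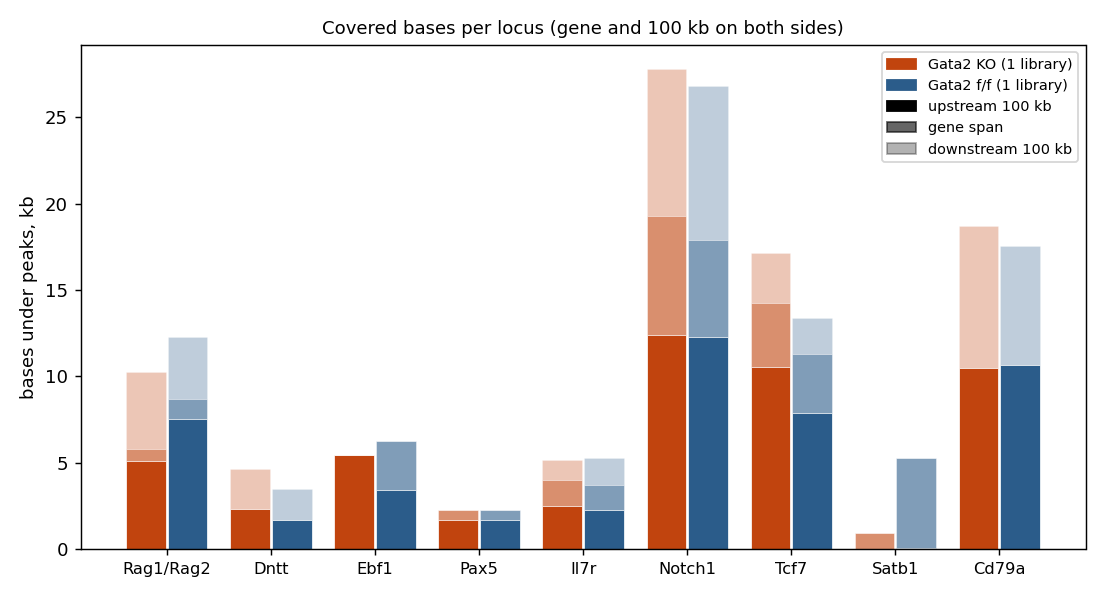
Bases under peaks in kb per locus, for the KO library (left bar of each pair) and the f/f library (right bar), split into 100 kb upstream (dark), gene span (middle) and 100 kb downstream (pale); 1 library each, so no error bars. Within the gene span, Satb1 and Ebf1 stand out with more f/f bases, and Tcf7 has more KO bases upstream.

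Rag2 and Rag1 face each other at chr2:101624712-101632528 (forward strand) and chr2:101638252-101649532 (reverse strand), and the first part of Rag2 overlaps the Iftap gene, which runs the other way. KO had no peak at the Rag2 start, its nearest one lying 3.63 kb into the gene. In f/f a peak 3454 bp wide (chr2:101621823-101625276) lay across that start, most of it on the upstream side. The f/f peak was a broad, low call with a fold of 2.37 and a -log10 p of 7.07; 31.8% of f/f peaks were weaker, and of f/f peaks of like strength (the list was cut into 10 bins by -log10 p) 78.7% overlapped a KO peak. The peak 3.63 kb into Rag2, at the Iftap promoter, was present in both lists and was 721 bp wide in KO and 584 bp in f/f. The Rag1 start had no peak within 20 kb in either list (20.5 kb in both).

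The promoter windows of the Rag genes are shown because 1 of them lay under a peak in f/f and under none in KO, while the other was bare in both. Each window, from RefSeq on GRCm38.p6 (the build of mm10), runs from 250 bases before to 50 bases after the start. Capitals mark matches on either strand to short motifs. For GATA factors these were AGATAA as well as the related form TGATAA. The RUNX motif searched was TGTGGT, and E proteins were represented by the E-box CAGCTG together with its other form CAGGTG. The ETS motif was CCGGAAG, while the TATA box was searched as the letters TATAAA.
Rag2, chr2:101624462-101624761, forward strand: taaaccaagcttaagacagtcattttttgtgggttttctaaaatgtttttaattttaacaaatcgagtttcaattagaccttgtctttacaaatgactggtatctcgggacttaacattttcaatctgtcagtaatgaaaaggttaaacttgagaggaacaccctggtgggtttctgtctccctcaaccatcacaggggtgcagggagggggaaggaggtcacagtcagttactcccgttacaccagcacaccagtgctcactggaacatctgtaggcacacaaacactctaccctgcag
Rag1, chr2:101649483-101649782, reverse strand: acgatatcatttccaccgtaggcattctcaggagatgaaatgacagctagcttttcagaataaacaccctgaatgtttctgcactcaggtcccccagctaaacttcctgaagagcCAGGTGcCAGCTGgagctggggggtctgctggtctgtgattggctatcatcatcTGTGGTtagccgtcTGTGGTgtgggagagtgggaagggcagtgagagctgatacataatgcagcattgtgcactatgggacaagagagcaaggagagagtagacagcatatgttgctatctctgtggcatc
The Rag2 window held none of these motifs and 3 CG pairs. The Rag1 window also had 3 CG pairs, with RUNX matches beginning 81 and 67 bases before the start and E-box matches 135 and 128 bases before it. Of 32851 promoter windows in the table, 16.8% held the RUNX letters and 32.9% an E-box.

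Upstream of Rag2, in the span of Iftap, 4 regions were shared by both lists between 29 and 56 kb from the start. The region nearest to Rag2 was 383 bp wide in KO and 664 bp in f/f, and the next, 40 kb away, 2768 bp in KO and 1942 bp in f/f. At the latter the KO peak was a weak call (-log10 p 3.42, 6.62% of KO peaks weaker). The f/f peak there had a -log10 p of 8.58, with 38.8% of f/f peaks weaker. The third was 571 bp in KO and 898 bp in f/f, and the fourth 1364 bp in KO and 1147 bp in f/f. Widths thus went both ways. On the Rag1 side the peak at the Traf6 promoter, a signalling adaptor gene, was among the strongest of its list in KO and in f/f, with 98.3% of KO peaks and 94.3% of f/f peaks weaker. Counted over 25 kb flanks, which leave out these 4 regions and Traf6, the locus had 721 bp in KO and 4038 bp in f/f, a ratio of 0.34 under the rule. The rule was also passed toward f/f with peaks of -log10 q of at least 5 (3692 bp in KO and 9901 bp in f/f). It was passed too with the KO list cut to the length of the f/f list (7483 and 12280 bp). That cut removes KO peaks only, so it can move a locus only toward f/f. With only the strongest 20000 peaks of each list the locus had 3692 bp in KO and 3607 bp in f/f.

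Dntt (chr19:41029275-41059525) had no peak over the gene in either list. Its nearest peak, 12.7 kb upstream of the start, was shared, at 407 bp in KO and 514 bp in f/f. A second shared region near 30 kb upstream, beyond which lies Blnk, a gene of B cell receptor signalling, was 1339 bp wide in KO and 1143 bp in f/f. KO also had a weak peak of 564 bp at the Blnk start (-log10 p 3.82, 12.0% of KO peaks weaker), where f/f had none within 1 kb. The Dntt promoter is shown because it was the only window of the 16 that held a GATA match, which began 112 bases before the start; 18.6% of all windows held one.
Dntt, chr19:41029025-41029324, forward strand: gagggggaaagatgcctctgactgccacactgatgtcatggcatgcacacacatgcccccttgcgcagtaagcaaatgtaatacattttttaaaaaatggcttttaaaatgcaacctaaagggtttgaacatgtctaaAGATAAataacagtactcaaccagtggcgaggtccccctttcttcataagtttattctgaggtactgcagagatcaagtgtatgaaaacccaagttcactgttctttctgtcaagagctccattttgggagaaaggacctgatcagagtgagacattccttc

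Ebf1 and Pax5, the B cell transcription factor genes, were bare at their starts in both libraries. Ebf1 spans 390 kb (chr11:44618100-45008096), and inside it lay 0 KO peaks and 2 f/f peaks, which began 263 and 275 kb from the start. The first, chr11:44880705-44882532, was 1828 bp wide with a -log10 p of 14.1, and the second, chr11:44892778-44893735, 958 bp wide with 13.1. Both were just above the f/f median, and no KO peak lay within 1 kb of either. Of f/f peaks of like strength, 93.5% overlapped a KO peak. The gene span therefore had 0 bp in KO and 2786 bp in f/f. The other peaks of the locus lay within Rnf145, a ubiquitin ligase gene upstream. Among them a KO peak of 2010 bp found in KO alone was one of the weakest calls (-log10 p 3.11, 2.69% of KO peaks weaker). Each of 4 stricter choices of peaks dropped it, and Ebf1 then passed the 1.5-fold rule toward f/f, with 3405 bp in KO and 6225 bp in f/f (ratio 0.61). With flanks of 25 or 50 kb the ratio was 0.26.

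Pax5 (chr4:44524748-44710694) had 1 peak inside the gene in each list, 145 kb from its start. It was 553 bp wide in KO and 577 bp in f/f and among the weakest calls of both, with 2.99% of KO peaks and 3.86% of f/f peaks weaker. Of KO peaks in the weakest of the 10 bins, 31.3% overlapped an f/f peak. The other peak of the locus was the promoter of Zcchc7, 1692 bp wide in KO and 1666 bp in f/f, 45.0 kb upstream of the Pax5 start. The Pax5 promoter window held 23 CG pairs, the same number as that of Notch1, which lay under peaks of both lists.

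Cd79a (chr7:24897497-24901858) had no peak over the gene. The nearest, 4.90 kb downstream of its start in KO and 4.97 kb in f/f, was the promoter peak of Arhgef1, 2387 bp wide in KO and 2479 bp in f/f. That peak is what puts Cd79a among genes with a gene-end peak. The Rps19 promoter on the other side was 2327 bp in KO and 2050 bp in f/f. Of 11 regions, 9 were shared. KO alone had a weak peak of 2526 bp, 18.7 kb downstream of the start (11.1% of KO peaks weaker). In f/f alone a peak of 743 bp lay 56.4 kb downstream (31.1% of f/f peaks weaker). With 25 kb flanks the locus had 7240 bp in KO and 4529 bp in f/f, a ratio of 1.49, just short of the 1.5-fold rule. The region near 73 kb upstream had 1209 bp in KO and 2312 bp in f/f, and the one near 51 kb upstream 1222 bp in KO and 766 bp in f/f. No covered base lay within Cd79a itself in either list.

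Il7r, the IL-7 receptor alpha chain gene (chr15:9506159-9529941, reverse strand), had peaks in the same 5 regions in both libraries. Its start was bare. A peak near the 3' end of the gene, 20.6 kb from the start, was 1496 bp wide in KO and 1411 bp in f/f, with 70.7% of KO peaks and 63.8% of f/f peaks weaker. Downstream, a region 13.4 kb beyond the gene was 401 bp in KO and 663 bp in f/f. Upstream, the regions within Spef2 measured 1673 bp in KO against 1373 bp in f/f for the nearer one, then 835 bp in KO against 911 bp in f/f.

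Notch1 (chr2:26457902-26503822, reverse strand) had the densest surroundings, with 19 KO and 18 f/f peaks in 21 regions, 16 of them shared. The peak at its start was 1497 bp wide in KO and 1264 bp in f/f. Inside the gene, regions near 10, 20 and 28 kb from the start were shared. In that order they measured 1214 bp in KO against 1248 bp in f/f, then 1752 against 1662 bp, then 2105 against 1859 bp. Between Notch1 and Egfl7, the widest region lay 46 to 49 kb upstream, with 3178 bp in KO and 3081 bp in f/f. Egfl7 hosts miR-126 and encodes an epidermal growth factor-like protein of endothelial cells. Over all 16 shared regions the KO to f/f ratio of bases had a median of 1.03, between 0.75 and 1.18. KO had 3 distal peaks with no f/f peak within 1 kb, all below the KO median, 1 of them 5.13 kb into the gene (777 bp, -log10 p 3.48). In f/f 1 such peak lay 2.40 kb from Egfl7 (881 bp, -log10 p 8.60), also below its list's median.

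Tcf7 (chr11:52246527-52283383, reverse strand) had more peaks in KO, 15 against 11, and all 11 f/f peaks lay in shared regions. Its start peak was 795 bp wide in KO and 960 bp in f/f. Inside the gene, the region 21 kb from the start had 1315 bp in KO and 679 bp in f/f, the greatest widening toward KO of all 57 shared regions of the 9 loci (ratio 1.94). The region 30 kb from the start had 1679 bp in KO and 1968 bp in f/f. Of the KO peaks found in KO alone at these loci, the one highest in the KO list lay 50.1 kb upstream of the Tcf7 start, on the way to Vdac1 (chr11:52333118-52334183). It was 1066 bp wide with a -log10 p of 29.6 and a fold of 5.37; 79.4% of KO peaks were weaker, and of KO peaks of like strength 97.2% overlapped an f/f peak. The nearest f/f peaks were those of the shared regions 21.9 kb and 63.3 kb upstream of the start. The other 3 KO regions without f/f peaks were 534, 1367 and 390 bp wide, with -log10 p values of 7.42, 3.86 and 4.06, all below the KO median.

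Satb1 (chr17:51736187-51833290, reverse strand) has no other protein-coding gene within 100 kb, so that no neighbour adds to its coverage. KO had 1 peak, chr17:51832137-51833046, 910 bp wide, over an outer start. In f/f there were 3, of 1248 bp at the same place, 1120 bp at chr17:51812600-51813719 and 2883 bp at chr17:51785710-51788592. The peak of 1120 bp lay 416 bp from an internal start and 546 bp from another. The nearest KO peak was 20.0 kb from these starts. The f/f peak of 2883 bp lay 44.7 kb from the outermost start. All 4 peaks were below their own list's median: 22.5% of KO peaks were weaker than the KO peak, and 45.6%, 37.0% and 23.3% of f/f peaks were weaker than the f/f peaks in the order given above. Of f/f peaks of like strength to the other f/f ones inside the gene, 78.7% and 71.5% overlapped a KO peak. Satb1 stayed past the 1.5-fold rule toward f/f under 6 other choices of peaks and flanks, but these add little. Flanks of 25 and 50 kb and equal peak numbers left its bases unchanged, at 910 bp in KO and 5251 bp in f/f. The flanks could not change them, as all its peaks lie in the gene or at its edge. The remaining choices dropped its only KO peak and its widest f/f peak. With -log10 q of at least 5, the strongest 20000 and fold of at least 3, KO had 0 bp, against 2368, 1248 and 2368 bp in f/f.

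An outer and an inner Satb1 window are shown since the outer lay under a peak in both libraries and the inner was flanked by one in f/f. The inner of the Tcf7 windows is shown since it lay partly under peaks of both. Their capitals mark the same motifs as above.
Satb1 marked outer start, chr17:51832598-51832897, reverse strand: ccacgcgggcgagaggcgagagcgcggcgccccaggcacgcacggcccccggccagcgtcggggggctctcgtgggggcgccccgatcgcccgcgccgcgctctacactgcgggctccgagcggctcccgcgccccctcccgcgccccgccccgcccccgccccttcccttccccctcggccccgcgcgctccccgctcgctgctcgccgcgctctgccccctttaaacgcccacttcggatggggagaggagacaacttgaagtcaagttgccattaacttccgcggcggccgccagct
Satb1 inner start, chr17:51812135-51812434, reverse strand: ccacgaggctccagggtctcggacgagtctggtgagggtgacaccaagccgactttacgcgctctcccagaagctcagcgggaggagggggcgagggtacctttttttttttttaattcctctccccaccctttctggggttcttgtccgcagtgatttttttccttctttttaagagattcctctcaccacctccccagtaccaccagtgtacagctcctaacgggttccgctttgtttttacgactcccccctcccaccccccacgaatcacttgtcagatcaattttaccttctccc
Tcf7, chr11:52282546-52282845, reverse strand: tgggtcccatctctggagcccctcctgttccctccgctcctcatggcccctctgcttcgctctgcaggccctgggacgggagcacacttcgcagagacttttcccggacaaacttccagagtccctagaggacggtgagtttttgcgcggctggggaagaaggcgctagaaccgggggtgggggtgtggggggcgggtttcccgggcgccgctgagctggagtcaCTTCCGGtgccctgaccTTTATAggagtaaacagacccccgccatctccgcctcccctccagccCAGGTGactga
The outer Satb1 window held 45 CG pairs and the inner one 13, neither with a match. The Tcf7 window held 17 CG pairs, an ETS match (8.86% of all windows), a TATA match (13.6%) and an E-box. Its start lay 67 bp outside the KO peak and 20 bp outside the f/f peak. The TATA and E-box matches thus lay outside both peaks, and the ETS match outside the KO peak. The outer Tcf7 window, not shown, lay wholly under both peaks and held 45 CG pairs and an E-box. The ETS and TATA matches were on the other strand, as CTTCCGG and TTTATA.

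Of the 16 promoter windows of the 10 genes, 4 lay under a KO peak and 6 under an f/f peak. The windows under a peak had a median of 20 CG pairs (3 to 45), and the other 10 a median of 7.5 (1 to 23). Over all windows, with a median of 7 CG pairs, 36.4% lay under a KO peak and 36.8% under an f/f peak. Among those with 0 to 4 CG pairs the shares were 7.02% in KO and 6.43% in f/f, and among those with 20 or more 78.3% in KO and 80.1% in f/f. Rag2, with 3 CG pairs, thus belonged to a class that is seldom marked in either list. The Rag1, Dntt and Il7r windows, with 3, 2 and 1, were of the same class and bare. A match or its absence describes the letters of a window and no more.

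**Figure D3:**
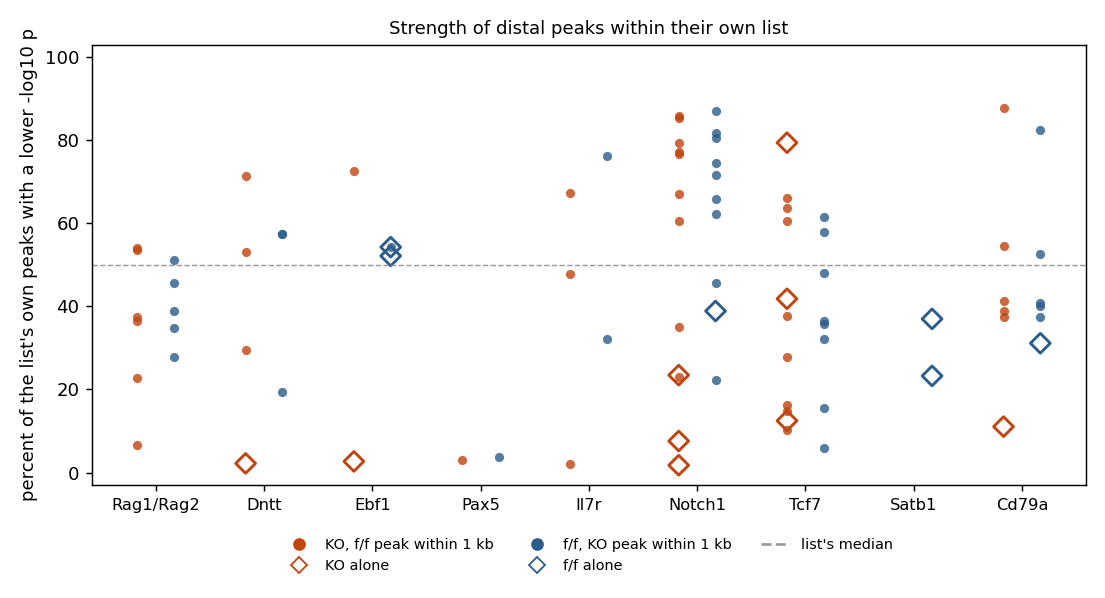
Strength of the distal peaks of each locus, as the percent of the same list's peaks with a lower -log10 p (y axis), for KO (left, orange) and f/f (right, blue). Filled circles have a peak of the other list within 1 kb and open diamonds have none; the dashed line is the list's median. Above it lie 1 of 9 KO diamonds, at Tcf7, and 2 of 6 f/f diamonds, both at Ebf1.

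Peaks lying more than 2 kb from every gene end, called distal, numbered 45 in KO and 40 in f/f. Of these, 9 KO peaks (20.0%, 95% Wilson interval 10.9 to 33.8) had no f/f peak within 1 kb, and 6 f/f peaks (15.0%, 7.06 to 29.1) had no KO peak. The intervals cover counting error only and take the peaks as independent, though many share a locus and each list is 1 library. Over the genome 28.4% of 25756 distal KO peaks and 20.4% of 23022 distal f/f peaks were alone. These shares lie within the intervals, which is a description and no test. Inside the gene spans, 1 of 7 distal KO peaks and 4 of 10 distal f/f peaks were alone, the f/f ones in Ebf1 and Satb1 and the KO one in Notch1. No genome-wide share was computed for distal peaks inside genes. The numbers moved with the peaks kept. At -log10 q of at least 5, 2 of 22 distal KO peaks (9.09%, against 21.9% genome-wide) and 13 of 32 distal f/f peaks (40.6%, against 27.1%) were alone. With the strongest 20000 peaks of each list these were 2 of 20 in KO (24.8% genome-wide) and 4 of 21 in f/f (24.8% genome-wide).

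**Figure D4:**
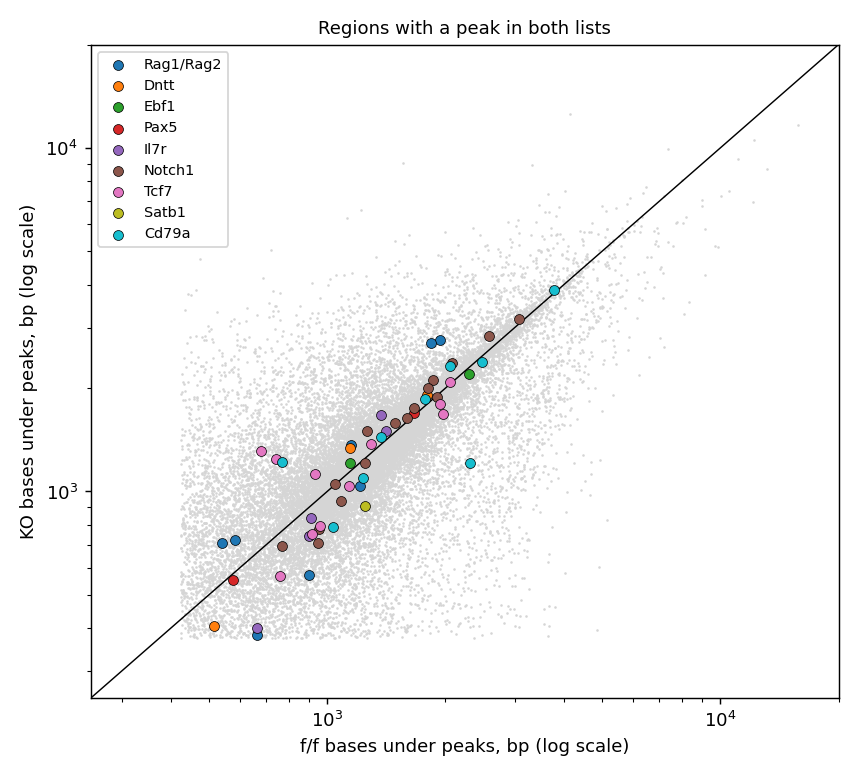
Bases under KO peaks (y axis) against bases under f/f peaks (x axis), both in bp on log scales, for every region with peaks of both lists; grey points are all 28627 regions, coloured points the 57 of the 9 loci, and the line marks equality. The coloured points scatter around the line, with the Tcf7 region (1315 bp in KO, 679 bp in f/f) farthest above it and a Cd79a region (1209 bp in KO, 2312 bp in f/f) farthest below.

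In the 57 shared regions the KO to f/f ratio of bases had a median of 1.02, with 31 regions wider and 26 narrower in KO and a range of 0.52 to 1.94. Over all 28627 shared regions the median was 0.99. Widths at the 9 loci thus differed in both directions between the lists, as they did elsewhere.

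The 3 lists of other lymphoid genes, 72 in all, were read in the same way over 100 kb flanks. Coverage was higher in KO for 35 of the 72 genes and lower for 36, with a median difference of -0.0025 points. Of all protein-coding genes 49.4% were higher in KO, 34.3% lower and 16.3% equal, with a median of 0.0. Past the 1.5-fold rule lay 2 genes toward KO and 5 toward f/f, beside shares of 6.35% and 4.61% of all genes. These counts depended on the peaks kept, as did the shares of all genes. A gene start peak was found in both lists for 27 of the 55 genes with a promoter entry (49.1%, beside 49.2% of all genes), in KO but not f/f for Blnk and Dll1, and in f/f but not KO for Xrcc5.

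Of 24 B cell genes, 10 were higher and 13 lower in KO, with a median difference of -0.01 points. Cd72, a B cell inhibitory receptor gene, was covered at 7.91% in KO and 5.88% in f/f. The surrogate light chain genes Igll1 and Vpreb1 are neighbours that share their bases, and had 9.91% and 10.0% in KO and 8.16% and 8.26% in f/f. The kinase gene Blk passed the rule toward KO, with 5957 bp in KO and 3238 bp in f/f. Irf4, a transcription factor gene of activated and plasma cells, had 2.23% in KO and 4.35% in f/f and passed it toward f/f. Near its end it had a peak in f/f and none near in KO, 17.4 kb from its start, which was weak (435 bp, -log10 p 4.70). Cd79b, the partner of Cd79a, had 3.20% in KO and 5.03% in f/f.

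Of 22 T cell genes, 11 were higher and 11 lower in KO, with a median of 0.02 points. Thy1, a T cell surface gene, had 14.1% in KO and 11.0% in f/f, Runx3 11.6% and 9.77%, and the kinase gene Lck 10.4% and 9.06%. Cd3g had 4.17% in KO and 4.93% in f/f, and Gata3 1.99% and 2.44%. Notch3 had 4.35% in KO and 4.93% in f/f, and near its 3' end, 44.0 kb from its start, a peak in f/f (-log10 p 23.3) with none near in KO. Bcl11b, which fixes the T cell fate, passed the rule on a single f/f region of 1044 bp, with 0 bp in KO.

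Of 26 genes of early lymphoid progenitors, cytokine and Notch signalling and DNA end joining, 14 were higher and 12 lower in KO (median 0.03 points). Flt3, a cytokine receptor gene that marks lymphoid-primed progenitors, had 4.33% in KO and 7.28% in f/f. The E protein genes Tcf4 and Tcf12, partners in early lymphoid transcription, had 0.66% in KO and 2.68% in f/f, and 2.64% in KO and 4.35% in f/f. Flt3, Tcf4 and Tcf12 passed the rule toward f/f. Tcf3, an E protein gene of the B cell list, went the other way without passing the rule, with 7.93% in KO and 6.63% in f/f. Dll1, a Notch ligand gene, had 5.38% in KO and 2.52% in f/f and passed it toward KO. Lsp1 had 8.60% in KO and 5.62% in f/f, and Ly6d 2.82% and 1.83%. Xrcc5, which encodes the Ku80 subunit of end joining, had a start peak in f/f and none near in KO, a weak call (596 bp, -log10 p 3.69), and similar coverage of 3.47% in KO and 3.32% in f/f.

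**Figure D5:**
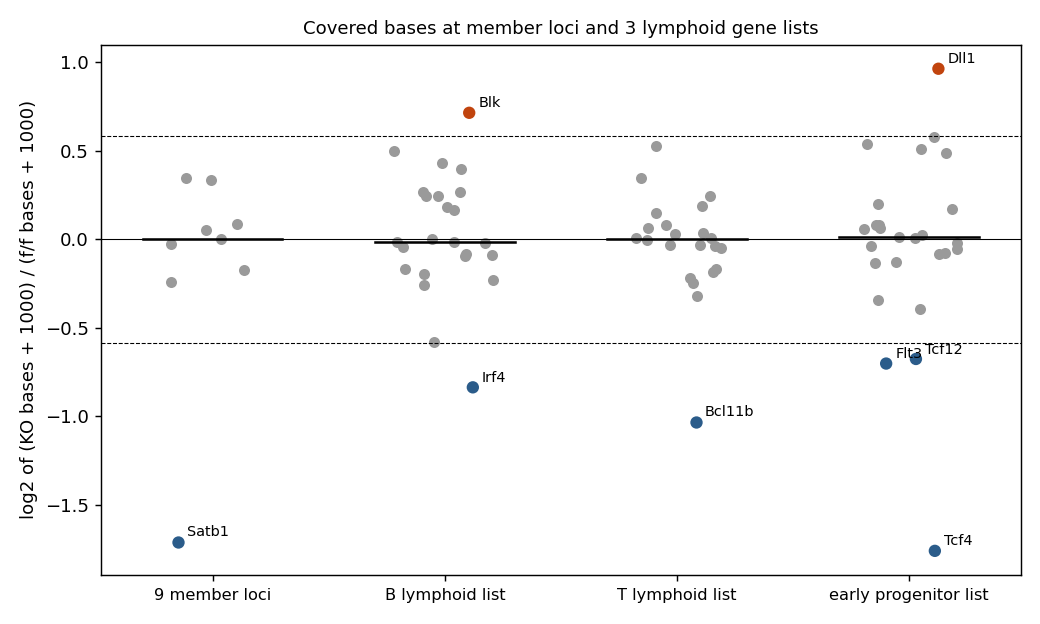
Log2 of (KO bases + 1000) over (f/f bases + 1000) for the 9 loci and each gene of 3 lymphoid lists; bars are medians, dashed lines the 1.5-fold rule, and named points lie past it. The medians lie near 0 in all 4 columns, and Satb1, Irf4, Bcl11b, Flt3, Tcf12 and Tcf4 lie below the lower line while Blk and Dll1 lie above the upper one.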

How the data were processed

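Peak lists of 2 H3K27ac libraries, 1 Gata2 KO and 1 Gata2 f/f, were analysed; groups follow the genotype in the labels. BWA, SAMtools and MACS2 and the build mm10 are named in the submitters' processing notes; neither versions and options nor the control and sequencing depth are stated, so depth is unknown. Each deposited peak has a score (not used), a fold enrichment (a ratio over background), and a -log10 p and -log10 q made by the authors' caller on a single library. Genes came from a RefSeq table of GRCm38.p6 and transcription starts from its promoter table. Peaks were counted by overlap of at least 1 bp, with coordinates 1-based. Coverage is the union of peak bases. The code (Python 3.11.15, pandas 2.3.3) was tested on simulated intervals. Distal peaks lay over 2 kb from protein-coding gene ends and were alone with no peak of the other list within 1 kb. Named genes were all members, genes under their peaks and, per list, those with a gene-end peak in 1 list alone and the 3 largest differences each way; Blk, Bcl11b, Blnk's start peak and single peaks and regions were chosen after values were seen. Members and lists were chosen with earlier results of these data known. Alternatives were other peak thresholds, flanks of 25 and 50 kb, gene-end windows and overlap rules. Some genes that the naming rule takes are not reported here.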

Additional observations from a re-analysis of the deposited data

How the results depend on the processing

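With 1 library per genotype no replicate could be left out. No paired analysis was possible because each genotype has 1 library. The cause of the moves below was not tested, beyond fewer peaks or bases being read. With peaks of -log10 q of at least 5, an equal number of peaks per list, the strongest 20000, fold of at least 3, and 25 kb flanks, the median coverage difference over the 9 loci was -0.48, -0.23, 0.038, -0.23 and -0.13 points, and the loci past the 1.5-fold rule toward f/f were 3, 3, 2, 2 and 3, with 2 at 50 kb flanks. No locus passed it toward KO under any of the 6 choices. The equal number was reached by cutting the KO list from 37234 to 34272 peaks, with the f/f list left whole. Under that choice a locus could move only toward f/f. For the 72 list genes the median was -0.082, -0.12, -0.13, -0.38 and -0.030 points, and -0.0038 at 50 kb. Their number past the rule toward KO was 2, 2, 3, 2 and 3, and 5 at 50 kb, where 4.34%, 4.93%, 5.19%, 3.22%, 7.08% and 6.99% of all genes passed it. Toward f/f it was 13, 8, 12, 18 and 10, and 7 at 50 kb, where 7.43%, 5.75%, 5.95%, 14.3%, 5.4% and 5.1% of all genes passed it. As shares of the 72 genes, the counts were above those of all genes toward f/f and below them toward KO. The choices reuse the same 2 libraries, and this was not tested. The same all-gene shares apply to the counts of the 9 loci. The median over all genes was 0.0 except at fold of at least 3, where it was -0.09 points and the lists kept 19919 KO and 23036 f/f peaks. Members with a gene-end peak in both lists fell to 2 at fold of at least 3. At its gene end, f/f alone had a peak for 1 member with -log10 q of at least 5, with the strongest 20000 and with fold of at least 3. That member was Satb1, whose KO peak these choices dropped. When the KO list could have a peak beyond 1000 bp, the 1 member was Rag2 instead. The share of all genes was not computed for these choices. Distal KO peaks alone were 2, 5, 2, 3 and 3, and 5 at 50 kb. Distal f/f peaks alone were 13, 9, 4, 10 and 4, and 4 at 50 kb. At fold of at least 3 those were 15.0% of distal KO and 38.5% of distal f/f peaks, beside 24.9% and 37.6% genome-wide. With equal numbers they were 5 of 38 in KO (13.2%) and 9 of 40 in f/f (22.5%), beside 23.8% genome-wide in each list. For the 25 and 50 kb flanks no share was computed. By locus, Satb1 and Ebf1 passed the rule toward f/f under 6 of 6 choices (ratios 0.30 to 0.44 and 0.26 to 0.61). For Satb1 the flanks could not change the bases, and the equal number of peaks did not. The Rag1/Rag2 locus passed it under 3 (0.34 to 1.02). Tcf7 lay between 0.80 and 1.26, Notch1 between 0.83 and 1.19, and Dntt between 0.93 and 1.27. Pax5 lay between 0.83 and 1.01, and Il7r between 0.92 and 1.03. Cd79a lay between 0.85 and 1.49, the latter with 25 kb flanks and just short of the rule toward KO. The median width ratio of shared regions stayed between 1.01 and 1.02. Depth is unknown, so a missing peak is not shown to be missing acetylation.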
